A study of Arabidopsis thaliana with 3 samples.

Results

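Distal arm peaks are the DIG1 and DIG2 binding intervals whose every summit lay more than 2000 bp from any protein-coding gene, outside the spans around the centromeres. They numbered 802 of the 11343 peaks in the DIG1 list (7.07%) and 952 of the 13440 peaks in the DIG2 list (7.08%), or 1754 of 24783 in all. The rule uses position alone, not strength, sharing between the lists or non-coding genes, but it was set with earlier results of these data known. On the chromosome arms they made up 7.63% of 10508 DIG1 peaks and 7.66% of 12429 DIG2 peaks. A further 116 DIG1 and 159 DIG2 peaks lay as far from coding genes inside the 5 spans around the centromeres, each 4.8 to 7.0 Mb wide, and were not members.

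The study was a ChIP-seq experiment on whole Arabidopsis thaliana seedlings of accession Col-0, 4 days old and kept in darkness in hydroponic culture. All groups received 10 uM dexamethasone for 6 h, a glucocorticoid used to switch on inducible transgenes. The groups were seedlings with GFP alone, with GFP-DIG1 and with GFP-DIG2, 1 sample each, and a rabbit polyclonal antibody against GFP precipitated the chromatin. Peak lists were analysed for DIG1 and DIG2, and no list of the GFP group was analysed here; the promoter behind the transgenes, the number of plants and the read depth were not stated in the labels. With 1 list per factor there was no replicate, so values are given without a test, and the intervals quoted are 95% Wilson intervals that cover counting error only.

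DIG proteins are transcriptional regulators of the response to abscisic acid (ABA), the hormone of drought and seed dormancy. Arabidopsis has a compact genome in which most regulatory DNA lies close to the start of a gene, and long stretches without coding genes are uncommon on the arms. Such stretches can hold distal regulatory elements, and they can also hold pseudogenes, transposon remnants and genes for non-coding RNA.

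Sequence more than 2000 bp from coding genes was bound at a density above the arm average, which includes coding genes, and below that within 500 bp of them. It amounted to 4.53 Mb, 5.15% of the 88.0 Mb of arm sequence, and held 177 DIG1 and 210 DIG2 members per Mb, against 119 and 141 peaks per Mb over the whole arms. With each peak placed by its strongest summit, density was highest at 1 to 500 bp from a coding gene, with 306 DIG1 and 351 DIG2 peaks per Mb. It then stayed level, at 209 and 248 per Mb from 1001 to 2000 bp and 220 and 261 per Mb from 2001 to 3000 bp. It was lower farther out, at 173 and 216 per Mb from 3001 to 5000 bp and 88.5 and 121 per Mb beyond 5000 bp. Inside coding genes, which made up 65.5% of arm sequence, it was 52.0 and 62.8 per Mb. How many reads could be placed uniquely at each distance is not known, and its part in these densities was not tested.

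**Figure D1:**
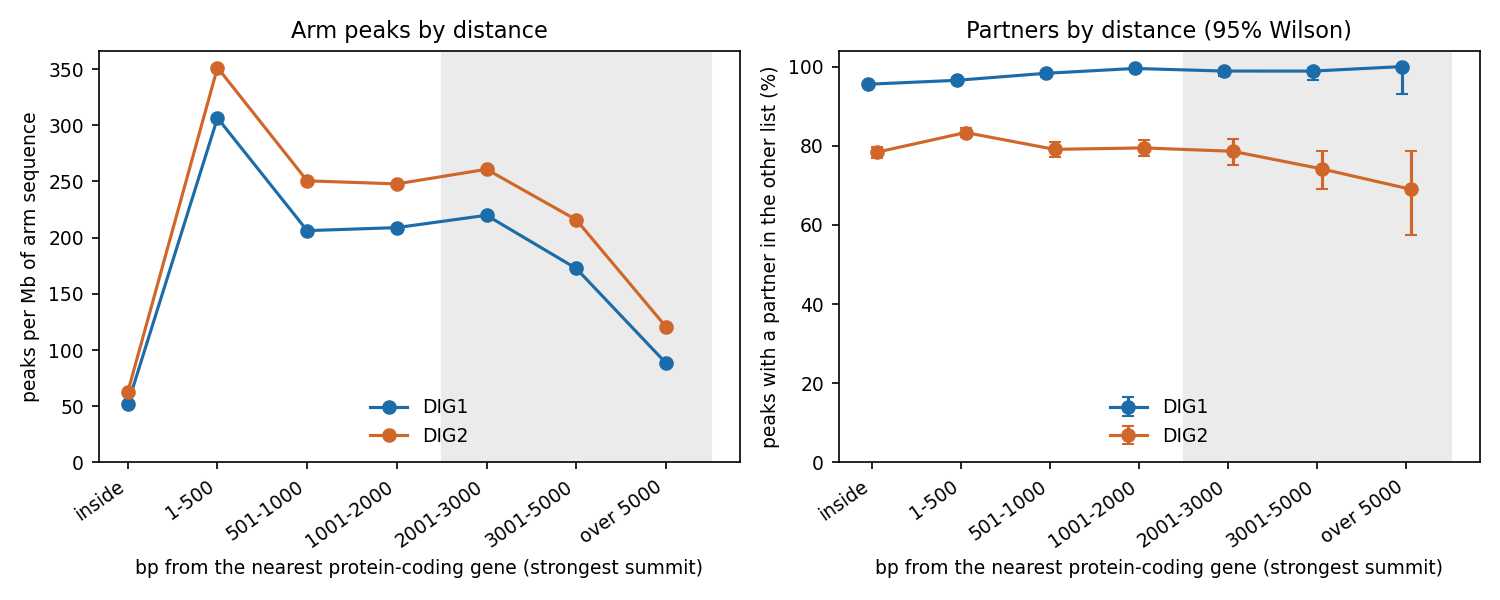
Left, arm peaks per Mb of sequence (vertical axis) by distance in bp from the nearest protein-coding gene (horizontal axis) for DIG1 and DIG2; right, the percentage of peaks with a partner in the other list, with 95% Wilson intervals. The grey band marks distances over 2000 bp, where density was 220 DIG1 peaks per Mb at 2001 to 3000 bp and 88.5 beyond 5000 bp, and where the DIG2 share with a partner was between 69.0% and 78.6%. Inside coding genes and up to 2000 bp from them the DIG2 share was between 78.4% and 83.3%.

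Members lay at a median of 2732.5 bp from the nearest coding gene in the DIG1 list (2001 to 12954 bp) and 2785 bp in the DIG2 list (2003 to 12911 bp). Only 46 DIG1 and 65 DIG2 members were over 5000 bp away. All 5 chromosomes held members: chromosome 1 had the most, 246 DIG1 and 292 DIG2, and chromosome 3 the fewest, 115 and 141. At the limit, the nearest DIG1 members lay 2001 bp from a coding gene, between AT4G12050 and AT4G12060 (fold enrichment 2.38), and 2002 bp away beside CLC-C (2.53) and FLA15 (3.85). The DIG1 peaks just short of it lay at 2000 bp between VEL1 and ATR2 (3.45) and between CYP705A2 and CYP705A3 (3.90), and at 1999 bp beside AT1G76870 (5.01). In the DIG2 list the last members were at 2003 bp beside ERF38 (4.23), 2004 bp between MSRB9 and MSRB2 (4.93) and 2006 bp beside CYP705A5 (2.34). Those just outside were at 2000 bp beside AT1G22600 (2.11), 2000 bp between AT3G14430 and NCED3 (9.88) and 1998 bp between VEL1 and ATR2 (4.41). Of these 12 peaks, the one between AT3G14430 and NCED3, outside the limit, was alone in the strongest 20% of its list.

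Distal peaks were about as strong as peaks elsewhere. Strength was read from the authors' values, a fold enrichment and a −log10 p per summit, and peaks were ranked by −log10 p within their own list, with rank 1 the strongest. The median fold enrichment was 3.40 for DIG1 members and 3.27 for all DIG1 peaks, and 4.09 for DIG2 members and 3.89 for all DIG2 peaks. Among the strongest 20% of the list, against a background of 20%, were 156 DIG1 members (19.5%, interval 16.9 to 22.3) and 200 DIG2 members (21.0%, 18.5 to 23.7). Of the 1000 strongest peaks, 60 of the DIG1 list were members (7.48% of members, background 8.82%) and 78 of the DIG2 list (8.19%, background 7.44%). Median widths were also close, 568 bp against 591 bp over all DIG1 peaks and 565.5 bp against 577 bp over all DIG2 peaks. Beyond 5000 bp, 8.70% of 46 DIG1 members (3.43 to 20.3) and 10.8% of 65 DIG2 members (5.32 to 20.6) were among the strongest 20%. These shares were lower, but both intervals included the background of 20%. With arm peaks placed by strongest summit alone, the shares beyond 5000 bp were 15.4% of 52 DIG1 and 15.5% of 71 DIG2 peaks.

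The strongest members stood near the top of both lists. The highest lay between ANAC087, a NAC factor of programmed cell death in the root cap, and APY2, an apyrase, 3162 bp from the first and 4338 bp from the other. It covered chromosome 5, 6045742 to 6046564 (TAIR10), in the DIG1 list and 6045677 to 6047070 in the DIG2 list. It ranked 10 for DIG1 with a fold enrichment of 16.7 and 3 for DIG2 with 20.2, and its summits in the lists were 11 bp apart. The next was 2403 bp from PAO5, a polyamine oxidase, with AT4G29710 on its other side (chromosome 4, 14550421 to 14551119 in the DIG1 list). It ranked 16 for DIG1 (fold 14.6) and 4 for DIG2 (fold 19.3), with summits 10 bp apart. Each had a single summit, and neither had an annotated non-coding gene within 500 bp.

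The next strongest members flanked genes of varied roles. The gap between DWF4, a hydroxylase of brassinosteroid synthesis, and U1-70K, a splicing factor, held 4 distal peaks in each list, the strongest on chromosome 3 from 18821772 to 18822348. That peak was 4641 bp from DWF4 and 4114 bp from U1-70K, at rank 58 for DIG1 (fold 9.83) and 59 for DIG2 (fold 12.4). A peak 2950 bp from GA2OX7, an oxidase that inactivates gibberellins, and 2197 bp from AT1G50950 ranked 152 for DIG1 and 72 for DIG2. Near CYP707A3, an ABA hydroxylase, a peak 7723 bp from that gene and 3055 bp from AT5G45350 ranked 99 for DIG1 (fold 9.19) and 115 for DIG2 (fold 11.8). AT5G45095 and BRG1, a RING ubiquitin ligase, enclosed a pair of strong DIG1 peaks at ranks 141 and 143, whose DIG2 partners ranked 94 and 172. The others were near BLH1, a BEL1-like homeodomain factor (ranks 168 and 64), between HPT1 of vitamin E synthesis and HA1, a proton pump of the plasma membrane (177 and 420), and near HB6, a homeodomain-leucine zipper factor (190 and 197). DIG2 also had peaks in its first 10 members between AT1G29640 and AT1G29660 (rank 112, 637 for DIG1) and between CYP705A12 and CYP71A16 of the marneral gene cluster (143, 313 for DIG1).

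NCED3, the enzyme of the rate-limiting step of ABA synthesis, bordered the gap with the most DIG1 members. The 15523 bp between NCED3 and CID9, an RNA-binding protein, held 7 DIG1 and 4 DIG2 distal peaks. The DIG1 peaks lay 3511, 5006, 6401, 8390, 9462, 11432 and 12132 bp from NCED3. Their fold enrichments, in that order, were 3.19, 10.3, 11.5, 2.75, 4.58, 6.43 and 2.34, so the strongest was that at 6401 bp, at rank 71 (chromosome 3, 4839582 to 4840677). In the DIG2 list the nearer part of the gap was a single interval of 3470 bp with 5 summits, rank 56 and a fold of 14.7, whose strongest summit was 2 bp from that of the DIG1 peak. The other DIG2 members were at 7108, 9479 and 11422 bp, with folds of 2.74, 6.46 and 9.95, and only the one at 7108 bp had no DIG1 partner. On the other side of NCED3, a DIG1 member stood 3283 bp from the gene (rank 4743, fold 3.84).

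By DIG1 members, the gaps of ARF6 and GA2OX2 came next. ARF6, an activating auxin response factor, was 19010 bp from its neighbour AT1G30350, and the gap held 6 DIG1 and 4 DIG2 members. By rank the strongest was nearer the neighbour, 14417 bp from ARF6 and 4594 bp from AT1G30350, at rank 441 for DIG1 (fold 7.95) and 177 for DIG2 (fold 12.8), with its summit at the same base in both lists. A DIG1 member 2164 bp from ARF6 was close in rank, at 484, with a higher fold of 8.81. The DIG2 interval over it, not a member, ranked 210 with a fold of 14.2. The gap of 21071 bp between nMAT1, a maturase of mitochondrial splicing, and GA2OX2 held 5 members in each list, of which the strongest ranked 4239 for DIG1 and 3412 for DIG2. Their summits lay 4808, 6891, 13570, 14917 and 18898 bp from nMAT1 in the DIG1 list and each was within 8 bp of its DIG2 partner's. All of them ranked below the 3 strongest peaks of the NCED3 gap in the same list. Gaps with 5 DIG1 members also bordered TINY (tny in the gene table), an AP2/ERF factor (5 DIG1, 4 DIG2), and lay between the Aux/IAA repressors IAA2 and IAA7 (5 and 3). Another was that of GH3.3, an auxin-conjugating enzyme; it held 1 DIG2 member, a 2803 bp interval with 4 summits, and the DIG2 interval over its strongest DIG1 peak (DIG1 rank 345, DIG2 rank 347) had a summit inside the limit. By DIG2 members the fullest gaps were those between CYP71A16 and MRN1 (3 DIG1, 6 DIG2) and between UMAMIT35 and AT1G60060 (2 and 6).

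**Figure D2:**
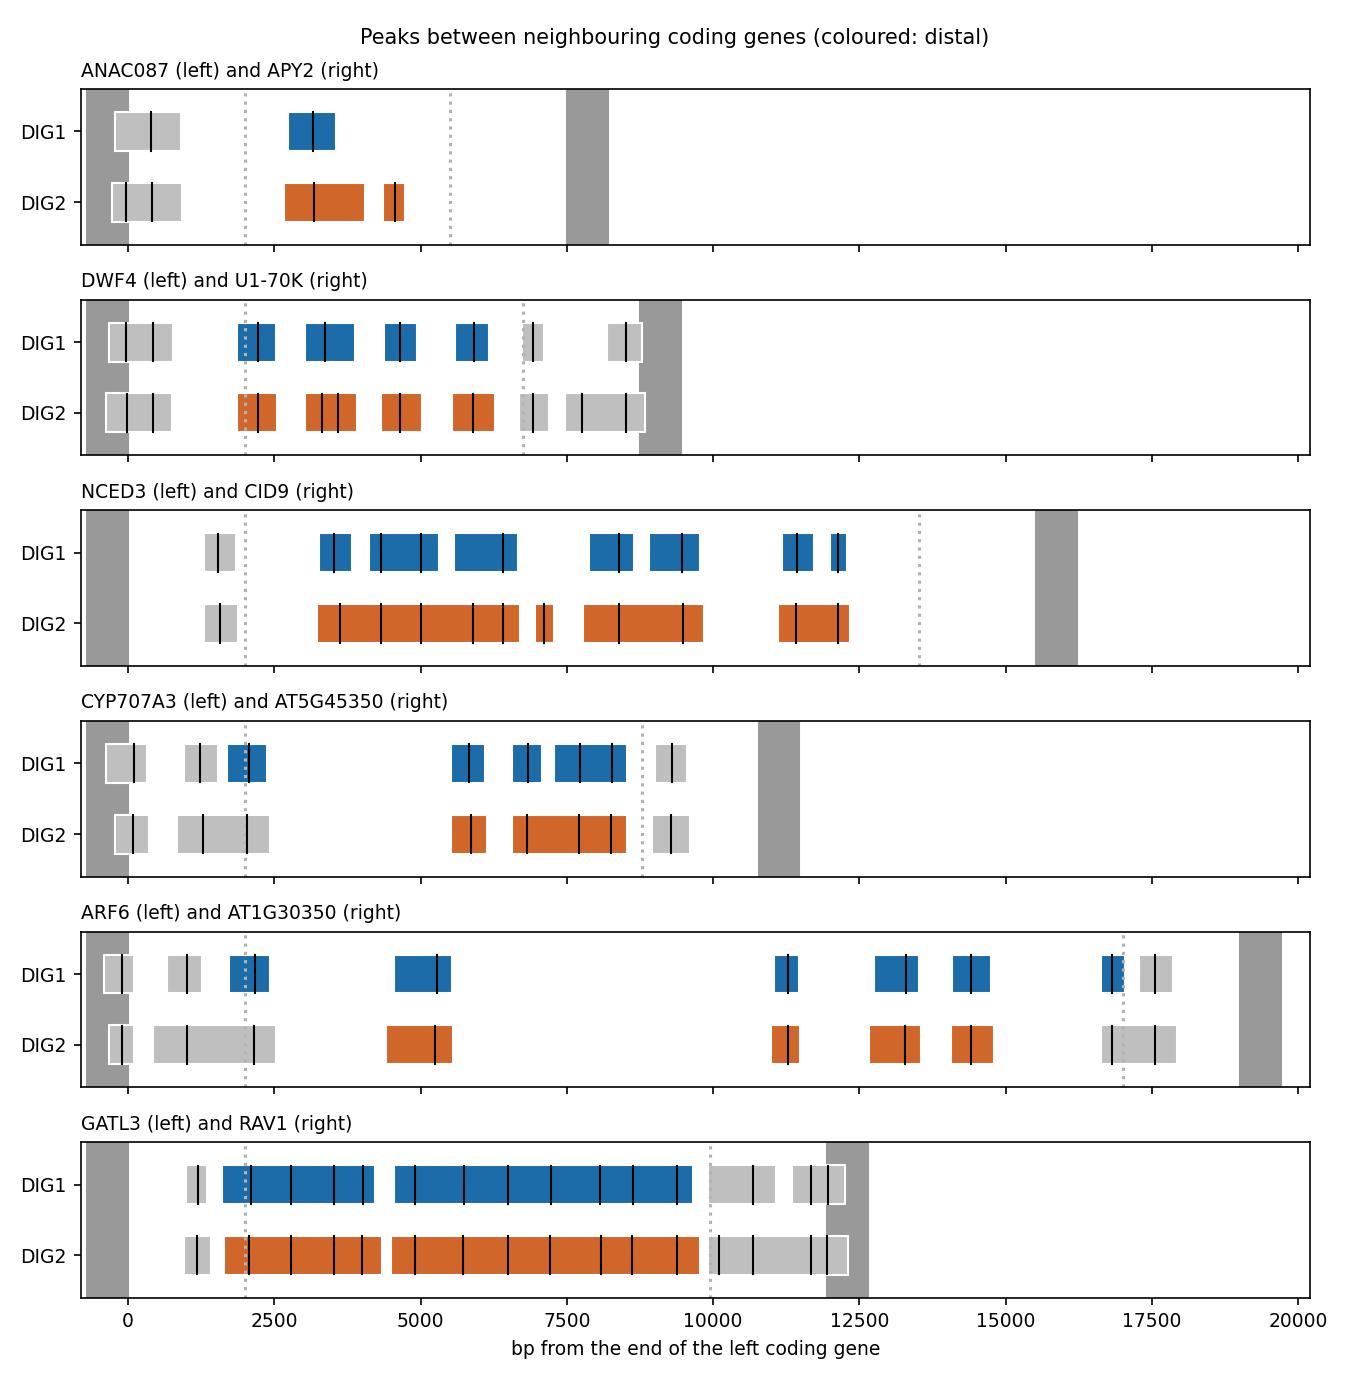
Peaks in selected gaps between neighbouring coding genes (grey blocks at both ends), in bp from the end of the left gene, with DIG1 above and DIG2 below; bars are intervals, coloured where distal and grey otherwise, black ticks are summits, and dotted lines mark 2000 bp from each gene. In the NCED3 gap 7 DIG1 peaks face 4 DIG2 peaks, and neighbouring DIG1 intervals fall within wider DIG2 intervals with several summits.

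Nearly all DIG1 members had a DIG2 partner, an interval overlapping at least 50% of the shorter. The count was 793 of 802 (98.9%, 97.9 to 99.4), with a background of 96.9% over all DIG1 peaks. For DIG2 it was 712 of 952 (74.8%, 71.9 to 77.4), with a background of 80.1% and 80.7% (80.0 to 81.5) over the other arm peaks. The DIG1 share was above its background and the DIG2 share below it. Both lists rest on the same antibody, and a control may be shared. The partner was itself distal for 718 DIG1 and 694 DIG2 members, and another 75 and 18 had a partner with a summit inside the limit. By single summits, 871 of 926 DIG1 summits (94.1%, background 91.0% of arm summits) and 811 of 1152 DIG2 summits (70.4%, background 74.0%) had a summit of the other list within 50 bp.

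DIG2 members without a partner were weak peaks of their list. All 405 members in the strongest 40% had one, and the share was 95.7% in the middle rank class of 5, against 96.5% of the other arm peaks. It was 98 of 196 in the next weaker class (50%, 43.1 to 56.9), against 73.7% (71.9 to 75.5) of other arm peaks, and 32 of 166 in the weakest (19.3%, 14.0 to 25.9), against 33.3% (31.4 to 35.2). Within these rank classes distal DIG2 peaks were matched at a lower rate than arm peaks nearer genes, and the counting intervals did not overlap. For DIG1 the weakest class went the other way, with 134 of 141 members matched (interval 90.1 to 97.6%) and 87.8% (86.2 to 89.2) of other arm peaks. Over all strengths, with arm peaks placed by strongest summit, the DIG2 share was 78.4% inside coding genes and 83.3% at 1 to 500 bp. It was 79.1% at 501 to 1000 bp, 79.5% at 1001 to 2000 bp and 78.6% at 2001 to 3000 bp. Farther out it was 74.2% at 3001 to 5000 bp and 69.0% beyond 5000 bp. The depth of the lists is not known, and its part in these shares was not tested.

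**Figure D3:**
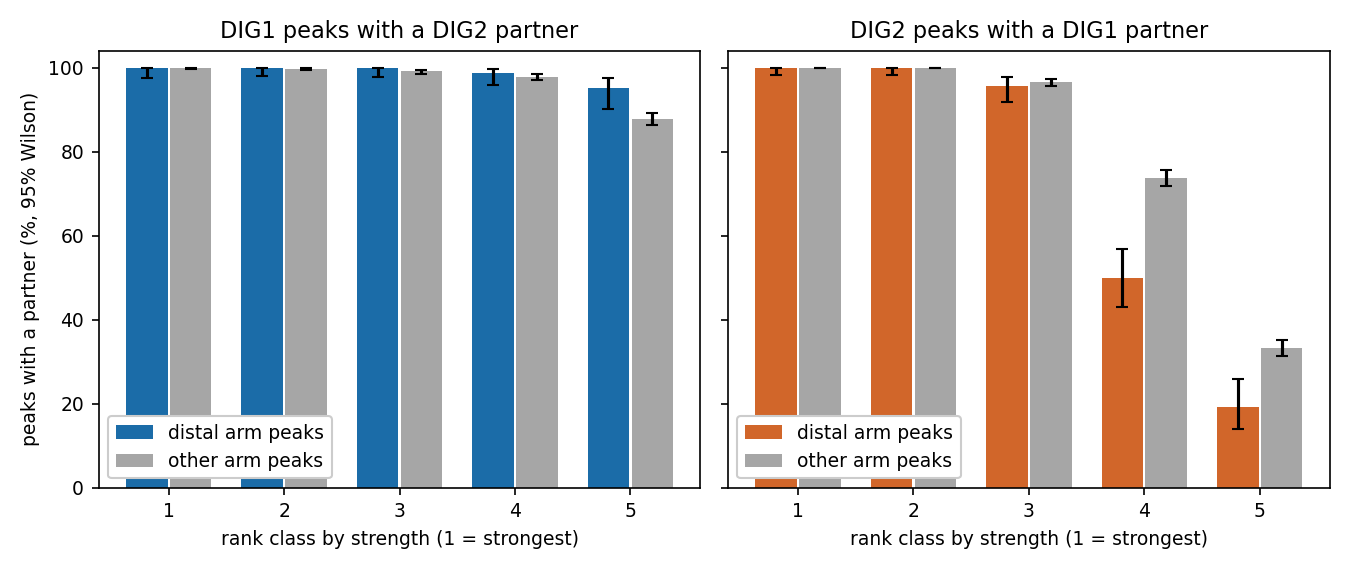
Percentage of DIG1 (left) and DIG2 (right) arm peaks with a partner in the other list, by strength in 5 equal rank classes of the list (1 is the strongest), for distal peaks (coloured) and other arm peaks (grey), with 95% Wilson intervals. In class 4 of the DIG2 list 50% of distal and 73.7% of other arm peaks had a partner.

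The strongest members without a partner bordered various genes. In the DIG2 list the strongest lay 2794 bp from IAA1 and 7939 bp from IAA14, both Aux/IAA repressors (rank 6894, fold 4.09). Next were peaks beside AT1G31772 (rank 7020), between JRG21 and SZF1 (7575) and beside AT4G13490 (7754). A peak at rank 7770 followed, 2859 bp from AT1G62370 and 7300 bp from STM, the homeodomain factor that maintains the shoot meristem. The strongest of these 240 was thus at 51.3% of the list from the top, and their median at 82.5%. The 9 DIG1 members without a partner began at rank 8234, between PHR1 and AT1G12380 (fold 2.72). After it came peaks by the microRNA gene MIR172b (8783), between PPC2 and LSH10 (9214), beside LON2 (10127) and beside AT4G12520 (10152). None of these was a strong peak of its list.

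Among the 718 pairs in which both peaks were distal, the order of strength in the lists was alike where the summits coincided. Each pair was a DIG1 member and its strongest DIG2 partner, so a wide DIG2 interval could occur in several pairs. The DIG2 interval at rank 56 in the NCED3 gap, for example, was the partner of the DIG1 peaks at ranks 71, 308 and 6076. Pairs with separate summits therefore depend in part on this matching. Spearman's rho of the rank percentiles was 0.867 over all pairs, which share the antibody and regions and possibly the control. With partners of any position counted, rho was 0.839 over 793 DIG1 members and 0.899 over 712 DIG2 members. Over all arm peaks with a partner it was 0.856 from the DIG1 side and 0.876 from the DIG2 side. The distal value was thus the lower from the DIG1 side and the higher from the DIG2 side. The 655 pairs with strongest summits at most 50 bp apart had a rho of 0.918 and a median difference of 10.1 percentile points, and none differed by more than 48.9 points. The 63 pairs with summits farther apart had a rho of 0.513 and a median difference of 23.4 points, and 13 of them differed by over 50 points. The 5 largest differences were all pairs in which a weak DIG1 peak fell in a wide DIG2 interval that also held a stronger DIG1 peak. Beside RPL10B, a ribosomal protein gene, DIG1 rank 9979 was paired with DIG2 rank 207, with summits 643 bp apart, while the other DIG1 peak in that interval ranked 409. The same held at NCED3 (9806 against 798, other DIG1 peak 1002), CYP94B3, a jasmonate hydroxylase (9673 against 965, other 1301), AT2G20080 (8446 against 275, other 472) and HAT3, a homeodomain-leucine zipper factor (8651 against 777, other 1030).

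Among pairs with coinciding summits the largest differences were smaller. A distal peak 3230 bp from LCB2 and 4416 bp from SWEET12, a sucrose efflux carrier, ranked 10857 for DIG1 and 6287 for DIG2. The peak near NLP7, a nitrate-response factor, ranked 11139 and 6687. In percent of each list these were 95.7 and 46.8 for SWEET12 and 98.2 and 49.8 for NLP7. The peak 2731 bp from UGT85A1 went the other way, at 26.5% of the DIG1 list (rank 3008) and 73.6% of the DIG2 list (rank 9887). In all, 572 of the 655 pairs had the stronger rank percentile in DIG2, and the lists differ in length. This count was not made for pairs elsewhere on the arms, so it cannot be read as particular to distal pairs. Over all peaks, the weakest rank class of 5 had a partner for 88.1% of DIG1 and 32.0% of DIG2 peaks. The part of unmatched weak peaks in the count was not tested.

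**Figure D4:**
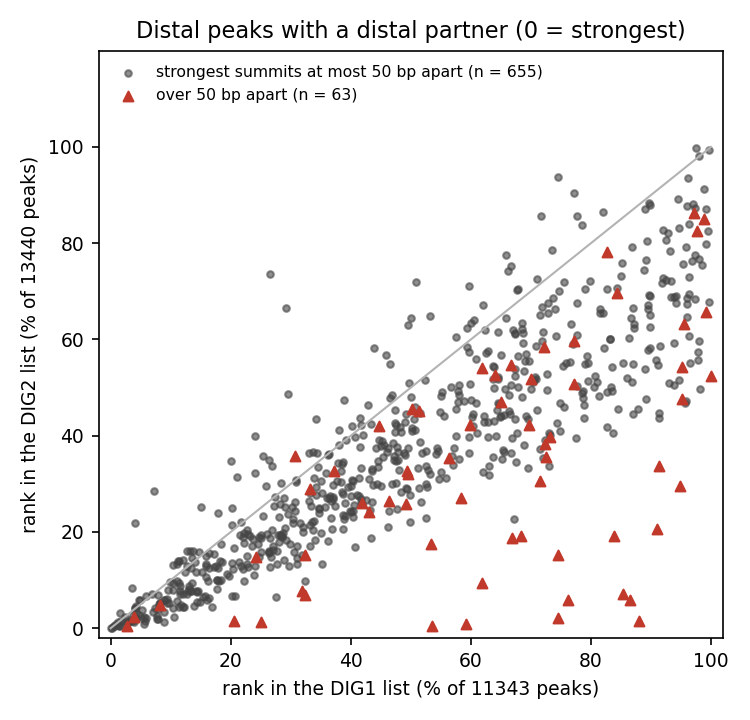
Rank of each of the 718 distal pairs in the DIG1 list (horizontal, percent of the list, 0 is the strongest) and in the DIG2 list (vertical), with grey points for strongest summits at most 50 bp apart (n = 655) and red triangles for summits farther apart (n = 63). Of the grey points 572 of 655 lie below the diagonal, with the stronger rank percentile in DIG2, and all 13 pairs that differ by over 50 points are triangles. The count below the diagonal was not made for pairs elsewhere on the arms. A DIG2 interval could occur in several pairs.

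Intervals with several summits numbered 97 in the DIG1 list (12.1%, 10.0 to 14.5, background 15.0%) and 154 in the DIG2 list (16.2%, 14.0 to 18.7, background 17.7%). The rule lowers this share, since every summit had to lie past the limit. With only the strongest summit past it, the shares were 16.8% (14.4 to 19.4) and 22.6% (20.2 to 25.3), above the background in both lists, so the direction rests on the rule. The longest chains were an interval with 8 DIG1 and 5 DIG2 summits between TIP2, an aquaporin, and AT3G26539, and one with 7 summits in each list 2559 bp from RAV1, a factor with AP2 and B3 domains. The RAV1 interval was 5122 bp wide at DIG1 rank 527 and 5278 bp wide at DIG2 rank 369.

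Some members lay far from any coding gene. The farthest stood between SDG21, a SET domain protein, and GDU4, 14262 and 12954 bp away (chromosome 2, 10546056 to 10546426). It was a middling peak, at rank 6571 for DIG1 (fold 3.10) and 6623 for DIG2 (fold 3.97), inside the lncRNA gene AT2G24755 and 234 bp from the pseudogene AT2G24750. The next was 9325 bp from SUC1, a sucrose transporter, and 9523 bp from AT1G71870, with rank 895 for DIG1 (fold 7.19) and 527 for DIG2 (fold 11.6) and its summit at the same base in both lists. Others far out lay between CYP71A16 and MRN1, the marneral synthase gene, and between AT5G19090 and AT5G19100. A DIG2 peak 8703 bp from YUC6 and 9382 bp from RD22 (rank 11259) had no DIG1 partner.

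With all classes joined, non-coding genes were as frequent at distal summits as at arm summits in general. A non-coding gene lay within 500 bp of a summit of 94 DIG1 members (11.7%, 9.67 to 14.1, background 11.1%) and of 109 DIG2 members (11.4%, 9.58 to 13.6, background 11.0%). The summit was inside one for 35 (4.36%, background 4.14%) and 42 members (4.41%, background 4.06%). These were 127 distinct genes, of which 94 were found with both lists and 81 were lncRNA genes. Conversely, 552 DIG1 members (68.8%, 65.5 to 71.9) and 638 DIG2 members (67.0%, 64.0 to 69.9) were more than 2000 bp from every annotated gene of any kind.

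MicroRNA genes were at the summits of 8 DIG1 members (0.998%, 0.506 to 1.96) and 7 DIG2 members (0.735%, 0.357 to 1.51), against 0.352% and 0.322% of all arm peaks. MicroRNA genes themselves often lay far from coding genes: 41 of 261 on the arms were over 2000 bp away, in 5.15% of arm sequence. The part of this location in the shares above was not tested. Of these 41 genes, 6 had the strongest summit of a DIG1 member within 500 bp and 4 that of a DIG2 member. The share of the other arm microRNA genes near any peak was not counted. MIR167d, whose product targets ARF6 and ARF8, had a peak on either side in both lists, at DIG1 ranks 3940 and 5010 and DIG2 ranks 3208 and 5042, with summits 285 to 350 bp from the gene. MIR160b and MIR160a, whose product targets the repressive auxin response factors, had peaks at DIG1 ranks 5845 and 11339 and DIG2 ranks 5999 and 7049. MIR166a, whose product targets class III homeodomain-leucine zipper genes such as REV, had a summit 231 bp away at DIG1 rank 6681 and 243 bp away at DIG2 rank 6337. MIR156c and MIR156a, of the family that targets SPL genes, had peaks at DIG1 ranks 7084 and 11013 and DIG2 ranks 7682 and 11860. MIR172b, of the family that targets AP2-like genes, had a DIG1 peak alone. None of the microRNA genes lay under a summit, and all of these peaks ranked below the strongest 20% of their list.

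Other non-coding genes stood at stronger peaks. The strongest DIG1 members with one were beside lncRNA genes near AVP1, a proton-pumping pyrophosphatase (rank 668), AT1G64380 (718), UMAMIT35 (815), MYB73 (1008), HAT3 (1030), WRKY6 (1112), BRC1, the TCP repressor of bud outgrowth (1252), and RAV1 (1291), and an RNA gene of the class misc RNA near TPR7 (1285). The summit lay inside the non-coding gene at AT1G64380, MYB73, HAT3, WRKY6, BRC1, TPR7 and RAV1, and in the DIG2 list the BRC1 peak ranked 773. TAS3, the precursor of small RNAs that target auxin response factors, lay 183 bp from a summit at DIG1 rank 1298 (fold 5.83) and 171 bp from one at DIG2 rank 1273 (fold 8.79). A second summit in each list was 107 and 108 bp from TAS3, at ranks 3995 and 3783. The gene table used here gives no strand or exons, so the position of these summits within a transcript was not described.

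Of 1831 gaps over 4000 bp between neighbouring coding genes on the arms, 532 held a DIG1 member (29.1%) and 598 a DIG2 member (32.7%). Both lists had a member in 493 of them, DIG1 alone in 39, DIG2 alone in 105 and neither in 1194. Longer gaps held one more often: 9.66% (DIG1) and 11.4% (DIG2) of gaps of 4001 to 5000 bp, 41.5% and 45.8% of gaps of 6001 to 8000 bp, and 56.5% and 63.5% of gaps over 12000 bp. Per Mb of distal sequence, density ranged from 191 to 209 DIG1 and from 222 to 247 DIG2 members in the 4 classes up to 12000 bp and was lower, at 116 and 146, in the longest gaps. Members thus spread over many gaps, and 172 gaps had 2 or more DIG1 members, 67 of them 3 or more.

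**Figure D5:**
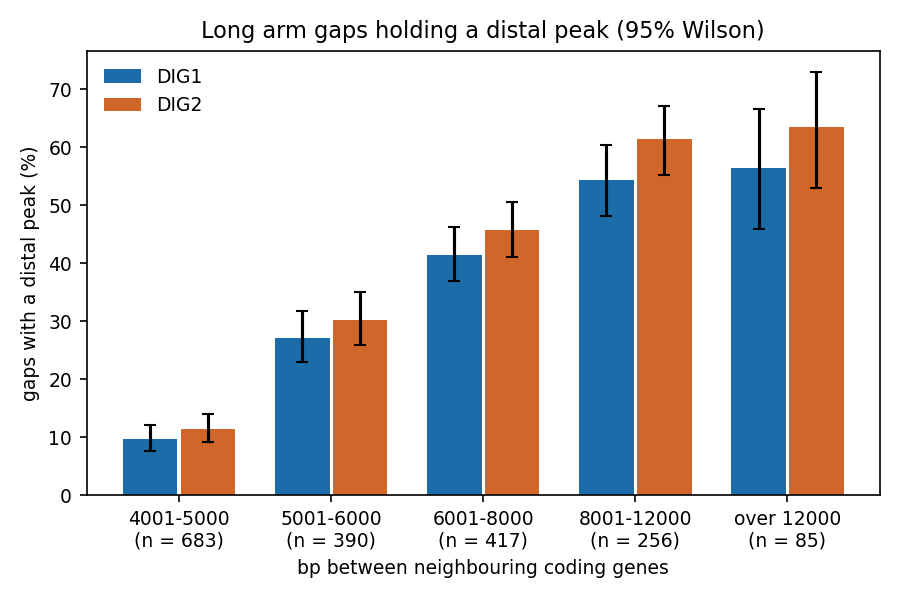
Percentage of gaps between neighbouring coding genes that held a distal peak (vertical axis) by gap length in bp (horizontal axis, with the number of gaps), for DIG1 and DIG2, with 95% Wilson intervals. The share was 9.66% and 11.4% in gaps of 4001 to 5000 bp and 56.5% and 63.5% in gaps over 12000 bp.

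Gaps with a distal peak more often also held a peak within 2000 bp of a gene. For DIG1 this was so in 417 of 532 gaps with a member (78.4%, 74.7 to 81.7) and in 682 of 1299 without (52.5%, 49.8 to 55.2), with 60.0% over all gaps. For DIG2 the shares were 83.3% (80.1 to 86.1) and 58.7% (55.9 to 61.4), with 66.7% over all gaps. The order was the same in each of the 5 length classes, and in gaps of 8001 to 12000 bp the DIG1 shares were 74.1% and 42.7%.

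Gaps without distal peaks more often held annotated pseudogenes. A pseudogene was present in 78 of the 637 gaps with a member of either list (12.2%, 9.92 to 15.0) and in 341 of the 1194 others (28.6%, 26.1 to 31.2), with 22.9% over all gaps, although the gaps with a member were longer. Among gaps of 8001 to 12000 bp the shares were 17.9% and 67.0%, and among those over 12000 bp they were 27 of 54 and 29 of 31. For lncRNA genes the shares were 29.7% and 21.5% over all lengths. They were close in gaps of 5001 to 6000 bp, 22.8% and 23.2%, and of 6001 to 8000 bp, 26.7% and 27.4%. In the other length classes gaps with a member had the higher share. It was 28.3% against 17.6% at 4001 to 5000 bp, 34.0% against 25.5% at 8001 to 12000 bp, and 46.3% against 29.0% over 12000 bp. The longest gap with no member, 43425 bp between AT1G56720 and AT1G57540, held 81 tRNA genes, and the next, 40520 bp between AT2G01023 and AT2G01035, held 7 pseudogenes. Repeated sequence limits where reads can be placed, and its part in this difference was not tested.

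Flanking genes were described by 8 lists, with the share over all coding genes that border a long arm gap as background: 30.4% of 3390 such genes had a DIG1 member in the gap and 33.9% a DIG2 member. Of 13 genes of ABA synthesis and breakdown, 8 bordered such a gap, and 4 of these had a DIG1 member and 5 a DIG2 member. Besides NCED3 they were CYP707A3 and CYP707A1, ABA hydroxylases, NCED2, and for DIG2 also NCED5. The gaps of this list were long, with a median of 9913 bp against 5678 bp over all coding genes. Of 31 genes of ABA signalling, 5 bordered a long gap (16.1%, against 12.4% of all coding genes) and none of the 5 had a member, which allows a share of up to 43.4% by the Wilson interval.

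Of 45 auxin genes, 29 bordered a long gap (64.4%, against 12.4% of all coding genes), and 11 of these had a DIG1 member (37.9%, 22.7 to 56.0) and 13 a DIG2 member (44.8%, 28.4 to 62.5). Apart from ARF6, IAA2 and IAA7 they included TIR1, the auxin receptor (DIG1 rank 1530 at 2871 bp), ARF5 (DIG1 rank 2077 at 4106 bp, DIG2 rank 2344 at 4112 bp) and YUC3 of auxin synthesis (DIG1 rank 2232 at 3872 bp, DIG2 rank 1455 at 3874 bp). The YUC3 peak was nearer to the gene at the other end of its gap. Of 5 stress and senescence NAC genes at long gaps, 4 had a member in each list. These were ANAC087, ANAC019 and the neighbours NAC047 and ANAC046, which enclose a peak at DIG1 rank 417 and DIG2 rank 371. Since NAC047 and ANAC046 share a gap, the count by gap was 3 of 5 (60.0%, 23.1 to 88.2). Counted by gap, the intervals of all 8 lists were wide and included the share over all gaps, 29.1% for DIG1 and 32.7% for DIG2.

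The other lists gave like counts. In the ERF and DREB list 6 of 14 genes at long gaps had a member in each list, among them RAV1, TINY and CRF3, a cytokinin response factor. Among genes of the root and shoot meristem 5 of 11 had one in each list: STM (3801 bp, DIG1 rank 3220, DIG2 rank 2617), PLT1, PLT2, CUC3 and KNAT6. In the flowering list 4 of 12 had a DIG1 member and 3 a DIG2 member. The strongest was that of TOE1, an AP2-like repressor of flowering (DIG1 rank 447, DIG2 rank 241). The DIG1 summit lay 4409 bp from TOE1, nearer to the gene at the other end of the gap. Genes of light signalling and the clock had a single case among 6, PRR5 (DIG1 rank 10923, DIG2 rank 9822). A wider list, 260 genes at long gaps whose annotation names them as transcription factors, had a DIG1 member in 115 cases (44.2%, 38.3 to 50.3) and a DIG2 member in 126 (48.5%, 42.5 to 54.5), with a median gap of 5927.5 bp. By gap these were 109 of 264 (41.3%, 35.5 to 47.3) and 118 of 264 (44.7%, 38.8 to 50.7). That list was taken from the gene descriptions as they stand and was chosen after the data had been seen.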

How the data were processed

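ChIP-seq peak lists were analysed for GFP-DIG1 and GFP-DIG2 (1 list each). Per the submitters' processing notes, reads were handled with Bowtie 0.12.7 and MACS2 on TAIR10; the MACS2 version, the control and the read depth, and whether replicates were pooled, are not stated there. The series' design text speaks of replicates, but 1 list per factor was used. Per peak the authors deposited a fold enrichment (a ratio), −log10 p and q values and a score; the score and q value were not used. The authors deposited 1 line per summit, and lines with the same interval were joined, with the summit of highest −log10 p taken as the strongest.

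Distances from summits were measured to 27444 coding and 10455 non-coding nuclear genes of a RefSeq table on TAIR10.1, whose chromosomes were taken to share TAIR10 positions; its own coordinates are not printed. Scripts used Python 3.11.15, numpy 2.4.6, pandas 2.3.3 and scipy 1.17.1, and distance and overlap functions were tested on simulated data. Of 215 listed genes, 180 matched by symbol and 33 by synonym, and 2 symbols that led to another gene were dropped. No genome was used here, so the planned motif search was not run and no sequence is printed.

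The members and gene lists were chosen with earlier results of these data known. Named genes flank the 10 strongest members of each list, the 5 farthest, all with a microRNA gene, the 10 strongest with another non-coding gene, the 5 strongest without a partner, the 5 largest rank differences, the 3 fullest gaps, the 3 peaks on either side of the limit and up to 3 genes per list; further genes were named after their values were seen. Alternatives were other distance limits (1500, 3000 and 5000 bp), distances from interval edges or to every annotated gene, the strongest summit alone, a −log10 p of at least 30, lists of equal length, wider spans, rank by fold, and other definitions of a partner and of a non-coding gene at a summit.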

Additional observations from a re-analysis of the deposited data

How the results depend on the processing

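Of 114 values computed under alternatives, 76 moved by less than their counting interval, or for counts by less than 1.5 times, and 38 moved by more; the cause was not tested. With limits of 1500, 3000 and 5000 bp there were 1225, 298 and 46 DIG1 and 1457, 377 and 65 DIG2 members. At 3000 bp the DIG2 share with a partner was 71.9%, that with several summits 13.8%, and the shares of gaps with a member 25.6% (DIG1) and 29.4% (DIG2). At 5000 bp the DIG1 and DIG2 values were 8.70% and 10.8% for the strongest 20%, 100% and 67.7% for partners, 17.4% and 13.8% for non-coding genes, and 19.9% and 24.7% for gaps. With −log10 p of at least 30 they were 99.7% and 69.5% for partners, 15.5% and 18.9% for several summits, and 23.5% and 28.5% for gaps. With the strongest summit alone past the limit, several summits were found in 16.8% and 22.6%, above instead of below the arm shares of 15.0% and 17.7%, and for DIG2 the strongest 20% held 24.0% and gaps 35.2%. With lists of equal length, partners were 96.3% and 84.0%, so the DIG2 share rose, and DIG2 gaps 29.5%. Partners at 50% of both intervals were 83.3% and 68.9%, and for DIG1 with summits within 100 bp 89.4%. Non-coding genes within 1000 bp were at 18.8% and 18.7%, and under the summit at 4.36% and 4.41%.

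No paired analysis was possible because each factor had 1 list. Read depth is unknown and limits every count, and with lists of equal length the DIG2 share with a partner was 84.0% against 74.8% as deposited.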
